A study of Drosophila melanogaster with 6 samples.

Results

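Neuroblasts, the neural stem cells of the fly embryo, divide asymmetrically: each division renews the neuroblast and buds off a smaller ganglion mother cell that goes on to make neurons or glia. The 10 genes described here encode the core of the machinery that makes these divisions unequal, namely baz, insc, pins, l(2)gl, dlg1, mira, pon, numb, pros and brat. They were taken by symbol, current or older, and each was read on the probe set whose mean over the 6 arrays was highest. All 10 had a uniquely named probe set and all 10 passed the filter on low values, out of 6933 genes tested in the series.

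The study profiled total RNA of *Drosophila melanogaster* embryos of 6 to 8 h, raised and aged at 25 °C, on biotin-labelled expression arrays. The mutant group holds 3 arrays of embryos with the insv[23B] allele of Insensitive (insv), a BEN-domain repressor of transcription found in neural precursors. The wild-type group holds 3 arrays of w[1118] embryos, a laboratory strain that carries a mutation in the eye-colour gene white. The labels name whole embryos, so a level combines all tissues, and fewer cells of a type cannot be told apart from less RNA per cell. How mutant embryos were selected, and whether the 3 arrays of a genotype had separate embryo collections, were points not given in the sources used here.

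Values are log2 expression levels as deposited, so a difference of 1 is a doubling. A probe set was tested if it reached 4 on at least 3 of the 6 arrays, and it was called where limma gave a p under 0.05 after Benjamini-Hochberg adjustment over the 8334 tested probe sets. The insv probe set read 4.0, 3.6 and 4.2 on the mutant arrays, against 10.9 on each wild-type array (log2 fold change -6.97 ± 0.16 SE, adjusted p = 3.26e-06), so the mutated gene followed its labels. Arrays of 1 genotype correlated at 0.996 to 0.998 across probe sets. The 23 Bacillus spike-in probe sets above the filter, which hold no fly RNA, were all lower on the mutant arrays, by a median of -1.43 on the log2 scale. Their part in the results was not tested, and because all arrays of a genotype shared it, handling of the arrays cannot be told apart from genotype.

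Unequal division begins with polarity. The Par complex, assembled on Bazooka, marks the apical cortex. Inscuteable ties it to Pins, which orients the spindle, and the cortical proteins L(2)gl and Dlg1 help to restrict other proteins to the opposite side. The adaptors Miranda and Pon then carry the fate determinants Prospero, Brat and Numb into the ganglion mother cell.

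The machinery differed little between the genotypes on the deposited scale. baz and numb were higher in the mutant, insc, pins, l(2)gl and pros were lower, and dlg1, mira, pon and brat did not pass the test. All 10 log2 fold changes lay between -0.37 and 0.33, and 0 of the 10 reached 2-fold. Of all tested probe sets 16.2% did, and of the 2097 with a mean level of at least 10, 2.29% did. All 10 members had a mean level above 10, so 0 of 10 was near the background for that level. The 6 calls among 10 members compare with 65.5% of all tested probe sets called, or 50.1% of those with a mean level of at least 10. The 6 called members were also the 6 without overlap between genotypes, as were 65.6% of all tested probe sets and 49.5% of those at or above 10. The members' share of calls was therefore near the background. Their median log2 fold change of -0.10 (quartiles -0.29 and 0.12) was that of all tested probe sets (-0.10, quartiles -0.37 and 0.20). Beside 2 members higher and 4 lower of 10, 24.7% of all tested probe sets were called higher and 40.8% lower, and of those at or above 10, 14.8% higher and 35.2% lower. Median centring of the arrays gave 3 members higher and 2 lower, with 2581 of all tested probe sets higher and 2434 lower, against 2055 and 3404 on the deposited scale. The spike-in scale gave 10 members higher and 0 lower, with 7714 of all tested probe sets higher and 51 lower.

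**Figure D1:**
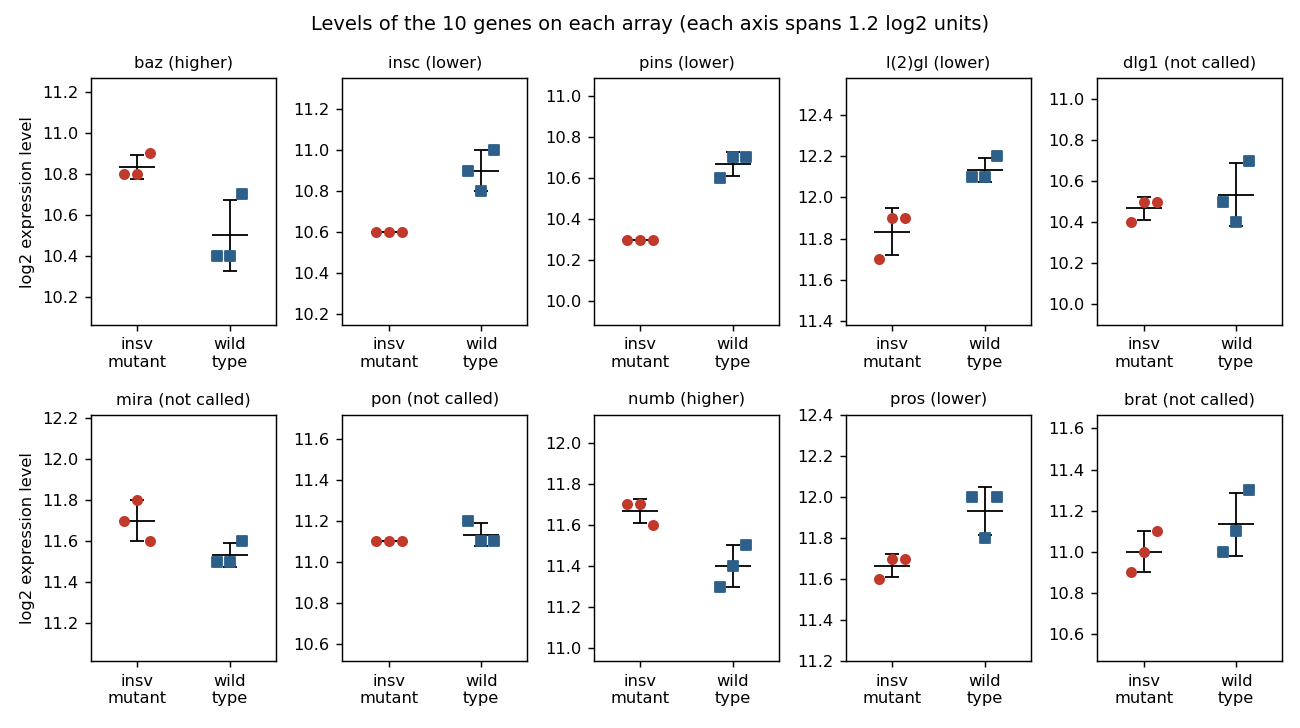
Log2 expression level of each of the 10 genes on the 3 insv mutant arrays (red circles, left) and the 3 wild-type arrays (blue squares, right), with the mean and SD in black; every axis spans the same range of log2 units. The genotypes separate for baz, insc, pins, l(2)gl, numb and pros and share values for dlg1, mira, pon and brat.

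At the apical cortex, baz and insc moved in opposite directions. baz encodes Bazooka, the fly Par-3 scaffold, and it is also used in the epithelia of the embryo. It read 10.8, 10.8 and 10.9 on the mutant arrays, against 10.4, 10.4 and 10.7 on the wild-type arrays. The lowest mutant array lay just above the highest wild-type one, which stood apart from the other two of its group. The log2 fold change was 0.33 ± 0.10 (SE, adjusted p = 0.0262), a 1.26-fold level with a 95% interval of 1.07 to 1.49. This call was lost on leaving out mutant replicate 1, 2 or 3 and likewise wild-type replicate 1 or 2 (adjusted p = 0.0688 to 0.0913), and it was kept without wild-type replicate 3 (adjusted p = 0.00253). It was also lost without a filter on low values (adjusted p = 0.0913).

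insc encodes Inscuteable, the apical adaptor between Bazooka and Pins, and its transcription is switched on as neuroblasts form. It read 10.6 on each mutant array, against 10.9, 10.8 and 11.0 on the wild-type arrays, with no overlap. Its log2 fold change was -0.30 ± 0.06 (SE, adjusted p = 0.00595), or 0.812-fold (95% interval 0.737 to 0.895). The call was kept when any of the 6 arrays was left out, with log2 fold changes of -0.35 to -0.25.

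pins showed the largest fall of the 10. It encodes the GoLoco protein that joins Inscuteable to the G protein subunit Galphai and to the spindle anchor Mud. It read 10.3 on each mutant array, against 10.6, 10.7 and 10.7 on the wild-type arrays. All mutant values lay below all wild-type values, and the log2 fold change was -0.37 ± 0.04 (SE, adjusted p = 0.000621), or 0.776-fold (95% interval 0.727 to 0.827). The call held with each array left out (-0.40 to -0.35). A further probe set that the annotation gives to both pins and hoip, a ribonucleoprotein gene, read 11.9, 11.8 and 11.7 in the mutant, against 12.3, 12.3 and 12.1 in wild type (log2 fold change -0.43 ± 0.08 SE, adjusted p = 0.0062). That signal cannot be assigned to either gene.

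Of the cortical tumour suppressor genes, l(2)gl was lower and dlg1 did not pass on its brightest probe set. l(2)gl encodes Lethal giant larvae, a substrate of aPKC that keeps the determinants at the basal cortex. It read 11.7, 11.9 and 11.9 on the mutant arrays, against 12.1, 12.1 and 12.2 on the wild-type arrays. The groups did not overlap, with a log2 fold change of -0.30 ± 0.07 (SE, adjusted p = 0.0133), or 0.812-fold (95% interval 0.719 to 0.917). It stayed called with any array left out (adjusted p = 0.0134 to 0.0467) and was lost after median centring (-0.20, adjusted p = 0.0528).

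dlg1 encodes Discs large, a membrane scaffold of septate junctions, neuroblasts and synapses, and it is the only member with more than 1 uniquely named probe set. The brightest read 10.4, 10.5 and 10.5 on the mutant arrays, against 10.5, 10.4 and 10.7 on the wild-type arrays. These values overlapped, and the log2 fold change of -0.07 had a 95% interval of -0.28 to 0.15 (adjusted p = 0.517).

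Another dlg1 probe set, 1627882_at, behaved differently. It read 5.4, 5.3 and 5.5 on the mutant arrays, against 2.5, 2.4 and 2.7 on the wild-type arrays, where it lay close to the lowest value of the table, 2.2. The difference was 2.87 ± 0.10 on the log2 scale (SE, adjusted p = 1.14e-05), or 7.29-fold (95% interval 6.17 to 8.62). This probe set passed the filter only through the mutant arrays, so a difference was a condition of its being tested, and a value near the floor can understate a fold change. Its log2 fold change was 2.44 after quantile normalization and 2.80 to 2.95 with any array left out.

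The remaining dlg1 probe sets were dim and overlapped between the genotypes. 1635382_at read 4.3, 4.1 and 4.7 in the mutant, against 5.1, 4.5 and 4.9 in wild type, a log2 fold change of -0.47 (95% interval -1.03 to 0.09, adjusted p = 0.115). It was called lower after quantile normalization (-1.14, adjusted p = 0.00239). 1640119_a_at read 3.9, 3.7 and 3.8 in the mutant, against 3.7 on each wild-type array, and was not tested. Fold changes of the 3 tested dlg1 probe sets thus spanned 3.33 on the log2 scale. dlg1 is known to make several isoforms that differ between epithelia, neurons and muscle. Which transcripts each probe set reads was not determined here.

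**Figure D2:**
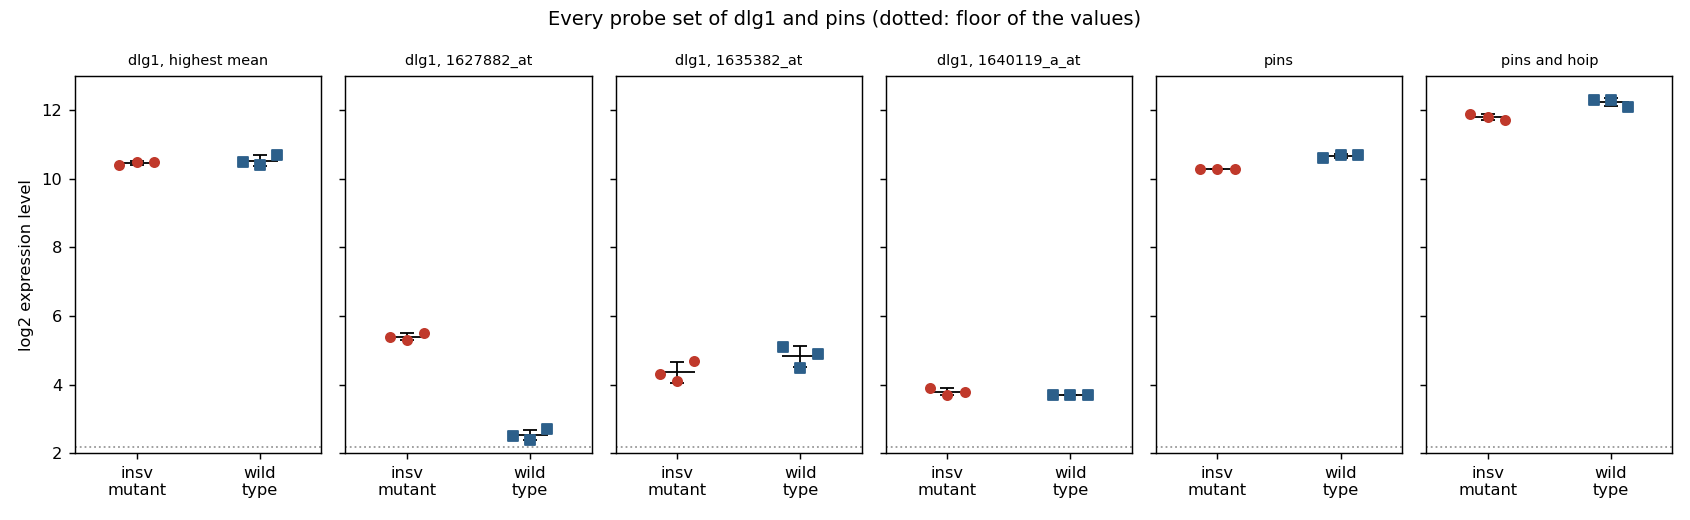
Log2 expression level on each array for the 4 dlg1 probe sets, the pins probe set and the probe set shared by pins and hoip, with insv mutant arrays as red circles on the left, wild-type arrays as blue squares on the right, and mean and SD in black. The dlg1 probe set 1627882_at lies at 5.3 to 5.5 in the mutant and at 2.4 to 2.7 in wild type, near the dotted floor of 2.2, while the brightest dlg1 probe set overlaps between genotypes.

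Neither adaptor gene passed the test. mira encodes Miranda, the coiled-coil protein that carries Prospero, Brat and the RNA-binding protein Staufen to the basal side. It read 11.7, 11.8 and 11.6 on the mutant arrays, against 11.5, 11.5 and 11.6 on the wild-type arrays, so that 1 mutant and 1 wild-type array shared a value. The log2 fold change of 0.17 had a 95% interval of 0.01 to 0.33 (adjusted p = 0.0619). mira was called higher after median centring (0.27, adjusted p = 0.0148), after quantile normalization (0.20, adjusted p = 0.0298), with array weights (0.21, adjusted p = 0.0198) and without mutant replicate 3 (0.22, adjusted p = 0.0328).

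pon encodes Partner of Numb, which helps to localize Numb, and it was the flattest of the 10. It read 11.1 on each mutant array, against 11.2, 11.1 and 11.1 on the wild-type arrays. The log2 fold change was -0.03 with a 95% interval of -0.13 to 0.06 (adjusted p = 0.446), or 0.916-fold to 1.04-fold. With array weights it was called lower (-0.08, adjusted p = 0.0409).

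The determinants split, with numb higher, pros lower and brat not called. numb encodes an endocytic adaptor that blocks Notch signalling in the daughter that inherits it. It read 11.7, 11.7 and 11.6 in the mutant, against 11.3, 11.4 and 11.5 in wild type. The groups did not overlap, and the log2 fold change was 0.27 ± 0.06 (SE, adjusted p = 0.0135), or 1.2-fold (95% interval 1.08 to 1.34). Without mutant replicate 1 or 2 the call was lost (0.25 each, adjusted p = 0.0523 and 0.0521).

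pros encodes Prospero, the homeodomain factor that enters the nucleus of the ganglion mother cell and shuts off neuroblast genes there. It read 11.6, 11.7 and 11.7 on the mutant arrays, against 12.0, 11.8 and 12.0 on the wild-type arrays. The values did not overlap, with a log2 fold change of -0.27 ± 0.07 (SE, adjusted p = 0.0196), or 0.831-fold (95% interval 0.736 to 0.939). This was the least stable of the falls: it was lost without any 1 of the mutant replicates 1, 2 and 3 or wild-type replicates 1 and 3 (adjusted p = 0.0509 to 0.0664), after median centring (-0.17, adjusted p = 0.0875) and without a filter on low values (adjusted p = 0.0661).

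brat encodes Brain tumor, an NHL-domain repressor of translation that limits growth in the daughter cell. It read 10.9, 11.0 and 11.1 in the mutant, against 11.0, 11.1 and 11.3 in wild type. The ranges overlapped, and the log2 fold change of -0.13 had a 95% interval of -0.38 to 0.11 (adjusted p = 0.262). The brat and l(2)gl probe sets carry the suffix s_at, and those of mira, pros, numb and dlg1 the suffix a_at. Both are used by the array's maker where probes match more than 1 transcript. Whether transcripts of other genes add to these signals was not determined here.

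**Figure D3:**
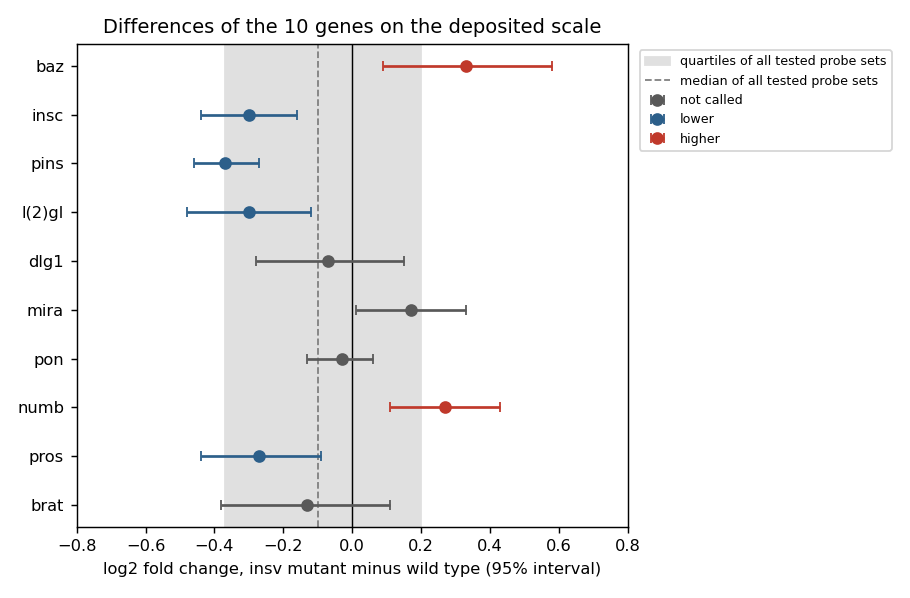
Log2 fold change of each gene (x axis, insv mutant minus wild type, with the 95% interval) in the order of roles used in the text, coloured by call; the grey band runs between the quartiles of all tested probe sets (-0.37 and 0.20) and the dashed line is their median (-0.10). The 10 genes lie between -0.37 and 0.33, inside or just beyond that band.

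The directions depended on how the arrays were put on 1 scale. Median centring moved every difference up by 0.10, which kept insc (-0.20, adjusted p = 0.0256) and pins (-0.27, adjusted p = 0.00224) lower, and baz (0.43) and numb (0.37) higher. After quantile normalization baz (0.39), numb (0.29), insc (-0.26), pins (-0.30), l(2)gl (-0.29) and pros (-0.25) kept their calls. On a scale that equalises the mean of the Bacillus spike-ins, which moves the median of all tested probe sets by 1.39, all 10 members were called higher, from 1.02 for pins to 1.72 for baz. Since that scale adds a constant to each array, the order of the members on it is that of the deposited scale by construction.

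A constant shift of an array cannot alter the difference between 2 genes on it, so members were also compared within arrays, as 10 pairs chosen by role. The level of such a difference has no meaning between probe sets, and only its change with genotype does. numb minus pros was 0.1, 0.0 and -0.1 on the mutant arrays, against -0.7, -0.4 and -0.5 on the wild-type arrays, a change of 0.53. baz minus insc was 0.2, 0.2 and 0.3 in the mutant, against -0.5, -0.4 and -0.3 in wild type, a change of 0.63. The genotypes did not overlap in either pair. This was fixed in advance, since both members of each pair had already separated between the genotypes, in opposite directions.

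Among the other pairs, mira minus pros (0.43), numb minus brat (0.40), numb minus pon (0.30) and l(2)gl minus dlg1 (-0.23) did not overlap, while insc minus pins (0.07), brat minus pros (0.13), mira minus pon (0.20) and mira minus brat (0.30) did. An exact two-sided permutation test gave p = 0.1 for each of the 6 pairs without overlap, the smallest that 3 arrays against 3 allow, and 0.167 after Benjamini-Hochberg adjustment over the 10 pairs, so no pair could pass. Of single tested probe sets 65.6% did not overlap, and the share among all pairs of genes was not computed.

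**Figure D4:**
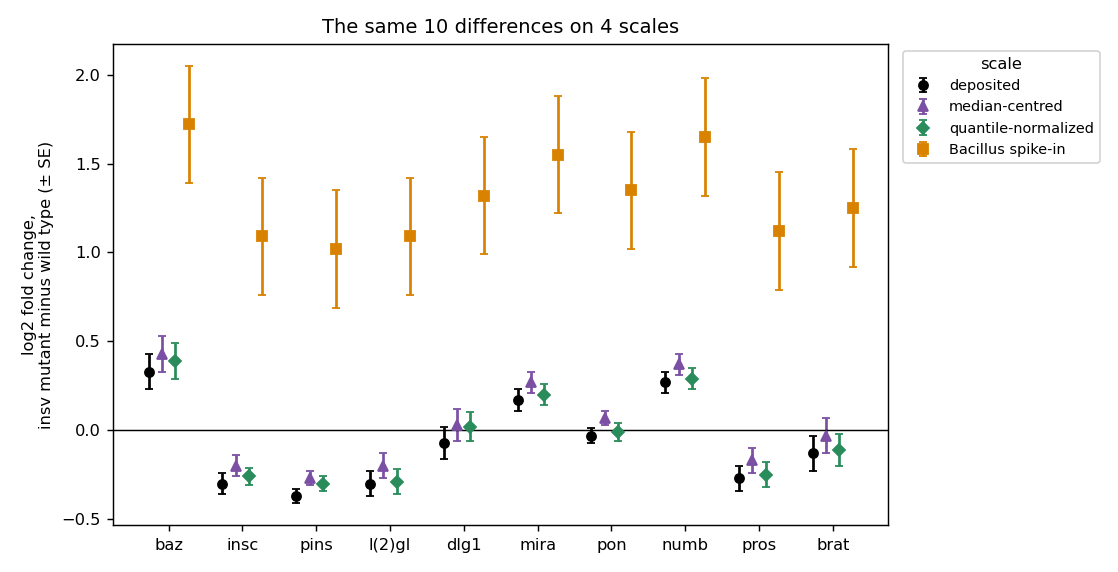
Log2 fold change of each gene (y axis, insv mutant minus wild type, ± SE) on the deposited, median-centred, quantile-normalized and Bacillus spike-in scales. The first 3 scales keep baz and numb above 0 and insc, pins, l(2)gl and pros below it, and the spike-in scale lifts all 10 above 1 with the order of the genes kept.

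Partners of the machinery were read from 6 lists of 42 genes in all. For 31 of them the annotation gave a uniquely named probe set, and all 31 were tested, while the other 11, among them Cdc42, aurA, polo and stg, were not analysed here. On the deposited scale 4 of the 31 were higher and 10 lower, with a median of -0.10. These 14 of 31 compare with 65.5% of all tested probe sets called. On the brightest probe set of each gene 0 were at least 2-fold, beside 16.2% of all tested probe sets. Dimmer probe sets of scrib (-1.57), mud (-1.0) and Khc-73 (1.53), described below, did reach 2-fold. Median centring gave 6 higher and 6 lower, and the spike-in scale 31 higher and 0 lower.

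Among 5 tested partners at the cortex, scrib and Dap160 were higher and 0 were lower, beside 24.7% of all tested probe sets higher and 40.8% lower. scrib, the third tumour suppressor of the module with l(2)gl and dlg1, read 10.5, 10.6 and 10.7 in the mutant, against 10.2, 10.1 and 10.4 in wild type (0.37 ± 0.10 SE, adjusted p = 0.0197). Leaving out mutant replicate 2 or 3, or either of wild-type replicates 1 and 2, ended its call (adjusted p = 0.0562 to 0.0675), as did testing without a filter (adjusted p = 0.0692). Other scrib probe sets were mixed. 1633904_at was also higher, by 0.57 (adjusted p = 0.0131), and 1632164_at did not pass (-0.27, adjusted p = 0.153). 1639402_a_at read 3.7, 3.7 and 3.9 in the mutant, against 5.8, 4.7 and 5.5 in wild type, and passed the filter only through the wild-type arrays. Dap160, an endocytic scaffold that binds aPKC, was higher by 0.30 ± 0.07 (SE, adjusted p = 0.0133). par-6 (0.07, adjusted p = 0.159) and aPKC (-0.30, adjusted p = 0.0999), the partners of Bazooka in the Par complex and named here after their values were seen, did not pass.

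Of 7 tested genes of spindle orientation 3 were lower and 0 higher (median -0.13), a share of falls near the 40.8% of all tested probe sets, and median centring left 2 lower. mud, the spindle anchor bound by Pins, read 5.4, 5.4 and 5.5 in the mutant, against 5.9, 5.9 and 5.8 in wild type (-0.43 ± 0.05 SE, adjusted p = 0.00087), and its call was kept after median centring. Another mud probe set, 1628717_a_at, read 3.8, 3.7 and 3.6 in the mutant, against 4.7, 4.6 and 4.8 in wild type, and passed the filter only through the wild-type arrays, so that its difference was a condition of its being tested. ric8a, which the G protein subunit needs to reach the cortex, gave -0.23 ± 0.04 (SE, adjusted p = 0.0032). Galphai itself, the partner of Pins, gave -0.13 ± 0.04 (SE, adjusted p = 0.0231), a call that ended with median centring (-0.03, adjusted p = 0.455) and on leaving out wild-type replicate 1 (adjusted p = 0.06) or 2 (adjusted p = 0.0522). Khc-73, a kinesin that links Dlg1 to the spindle, was flat on its brightest probe set (0.03, adjusted p = 0.654), but its other probe set, 1627136_at, read 6.9, 6.8 and 7.1 in the mutant, against 5.4, 4.8 and 6.0 in wild type (1.53 ± 0.31 SE, adjusted p = 0.00899). Khc-73 was chosen after its values were seen.

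On the basal side 1 of 5 tested genes was higher and 1 lower, beside 24.7% of all tested probe sets higher and 40.8% lower. spdo, the Notch regulator on which Numb acts, gave -0.30 ± 0.06 (SE, adjusted p = 0.00595). stau, which encodes the RNA-binding cargo of Miranda, gave 0.23 ± 0.08 (SE, adjusted p = 0.0496), at the edge of the threshold, and lost its call without any of the mutant replicates or wild-type replicate 1 (adjusted p = 0.1 to 0.127) and without a filter (adjusted p = 0.147). Of 10 listed mitotic kinases, phosphatases and their partners 5 were tested, and the kinase genes aurA and polo were not among these. Of the 5 tested, 4 were lower and 0 higher (median -0.30), beside 40.8% of all tested probe sets lower, and median centring left 3. Among them were the PP2A subunit gene tws (-0.43), bora, an activator of Aurora A (-0.30), and the catalytic PP4 gene Pp4-19C (-0.27), with adjusted p between 0.00203 and 0.0133. The bora call ended with median centring (-0.20, adjusted p = 0.0528).

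Upstream and downstream of the machinery the differences were as small. Of the Snail-family genes that act together upstream of insc, wor was lower (-0.17, adjusted p = 0.0111), sna higher (0.20, adjusted p = 0.0135) and esg not called (0.03). The wor call ended with median centring (-0.07, adjusted p = 0.163) and with quantile normalization (-0.13, adjusted p = 0.051). Among 6 tested genes reported as regulated by Prospero or Brat, only ase, a proneural gene of neuroblasts, was called (-0.30, adjusted p = 0.0133), and not after median centring (-0.20, adjusted p = 0.0528). CycE, dpn, klu, zld and hb did not pass. The calls in these lists compare with 24.7% of all tested probe sets called higher and 40.8% lower. In either direction 65.5% were called, or 50.1% of those with a mean level of at least 10.

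**Figure D5:**
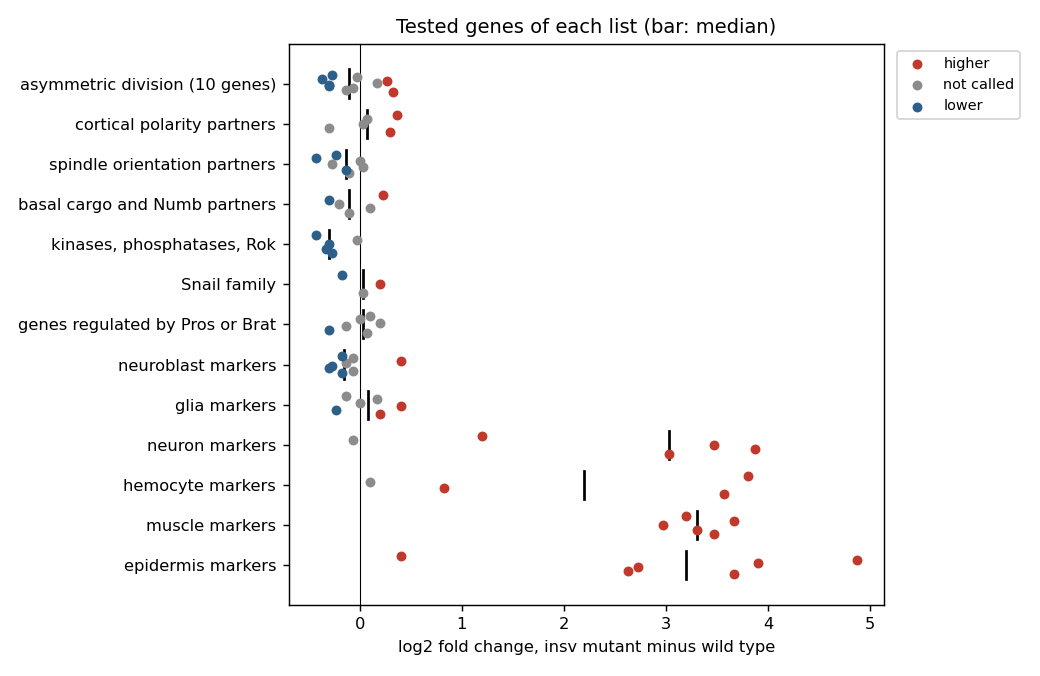
Log2 fold change (x axis, insv mutant minus wild type, deposited scale) of every tested gene of the asymmetric division set, its 6 partner lists and 6 marker lists, coloured by call, with the list median as a black bar. The asymmetric division genes, their partners, and the neuroblast and glia markers lie within 0.43 of 0. Most neuron, muscle and epidermis markers and 2 of 4 hemocyte markers lie above 1.

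Markers of neuroblasts and glia were close in level between the genotypes. All 8 neuroblast markers were tested, with grh higher (0.40 ± 0.02 SE, adjusted p = 6.43e-05), ase, cas, wor and D lower (-0.30 to -0.17), and a median of -0.15. Their summed linear signal was 19600 to 20300 on the mutant arrays and 19900 to 20900 on the wild-type arrays, and median centring left 1 higher and 0 lower. ase, wor and dpn also stand in the partner lists. grh read 12.3 on each mutant array and 11.9 on each wild-type array, so its small SE is an effect of rounding. Averaging its 2 probe sets gave 0.18 (adjusted p = 0.00211). Of 6 tested glia markers 2 were higher, moody (0.40) and Gs2 (0.20), and gcm was lower (-0.23). Beside both lists, 24.7% of all tested probe sets were called higher and 40.8% lower.

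Other markers moved far more on the same arrays, where 24.7% of all tested probe sets were called higher and 16.2% differed at least 2-fold. The comparison with the members is between unlike levels. In wild type the muscle, epidermis, neuron and hemocyte markers called higher had means from 2.3 (ChAT) to 9.13 (Osi6). The members had wild-type means of 10.5 (baz) or more, and of probe sets with a mean level of at least 10, 2.29% differed at least 2-fold. All 5 tested muscle markers were higher, among them the contractile protein genes Tm2 (3.67), Mlc1 (3.47), Mlc2 (3.3) and Prm (2.97), with a median of 3.3 and a summed signal of 7770 to 8370 in the mutant, against 745 to 780 in wild type. Of 6 tested epidermis markers 6 were higher (5 higher and 1 lower after quantile normalization), among them TwdlN (4.87), TwdlM (3.9), Cpr56F (3.67) and Osi6 (2.73), with a summed signal of 9880 to 9990 in the mutant, against 851 to 894 in wild type, and ple at the floor of 2.2 on every array. Among 5 tested neuron markers 4 were higher, namely Gad1 (3.87), cpx (3.47), ChAT (3.03) and fne (1.2), the list median was 3.03, and elav, expressed in all neurons and named after its value was seen, did not pass (-0.07, adjusted p = 0.385). VGlut lay at the floor on every array. For hemocytes 3 of 4 tested markers were higher, namely the collagen genes vkg (3.8) and Col4a1 (3.57) and the peroxidasin gene Pxn (0.83). The hemocyte marker srp did not pass (0.10, adjusted p = 0.415). Hml, also of that list, and the germ cell marker vas were under the filter. Of these lists the neuron marker ChAT and the epidermis markers Cpr56F and Ddc passed the filter only through the mutant arrays. A difference was thus a condition of their being tested, and the neuron median of 3.03 is the value of ChAT. Several members, dlg1 among them, are expressed in epidermis, neurons and muscle as well as in neuroblasts, and the part of these tissues in the members' levels was not tested.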

How the data were processed

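Expression was measured on 6 arrays, 3 per genotype. The deposited values are log2 expression levels that the authors made with GCRMA, per the submitters' processing notes; its version and options were not given in the sources used here. That the scale is log2 follows from the range of values, 2.2 to 15.1 with 1 decimal. Of 18952 probe sets, 183 controls were set aside, and of the other 18769, 13647 had 1 gene symbol, 402 several and 4720 none in the platform annotation. For 13544 probe sets the symbol was brought up to date by gene identifier in RefSeq (assembly Release 6 plus ISO1 MT), used for names alone.

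Mutant minus wild type was fitted with lmFit and eBayes of limma 3.58.1 (R 4.3.3, no block) on the 8334 probe sets that passed the filter, a script tested on simulated data. A gene was read on its probe set with the highest mean. Rounding to 1 decimal gives identical values on all 3 arrays of a genotype for several members, so their SD of 0 is an effect of rounding, and the prior degrees of freedom were only 1.18. Summed signals add 2 to the power of the log2 level over a list's genes. The number of arrays limits the precision, and the p-values measure the spread between samples that may be technical replicates. No 2 arrays were identical throughout, but arrays of 1 genotype shared the same rounded value on 20.5 to 43.1% of tested probe sets. The labels give no batch.

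The members, gene lists and tests were chosen with earlier results of these data known. Named were insv, the members with all their probe sets, and up to 4 called genes of each list with the smallest adjusted p (1 is not reported here); other names complete a list or were chosen after their values were seen. Alternatives were no filter, a filter at 6, median centring, quantile normalization, a spike-in scale, a trend or robust prior, weights per array, a replicate block, each array left out, and averaging the probe sets of a gene. No promoter or protein sequences were used here.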

Additional observations from a re-analysis of the deposited data

How the results depend on the processing

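The members called higher numbered 2 as reported, 1 without a filter, 1 with the replicate block, 10 on the spike-in scale and 0 to 2 with an array left out. Those called lower numbered 4 as reported, 2 after median centring and 0 on the spike-in scale. Of the partner genes, 4 were higher as reported, 2 without a filter, 2 with the replicate block, 7 with array weights, 31 on the spike-in scale and 2 to 8 with an array left out, and the 10 lower became 6 after median centring and 0 on the spike-in scale. Over all tested probe sets the spike-in scale called 7714 higher and 51 lower, against 2055 and 3404 as reported. Median centring called 2581 higher and 2434 lower, the replicate block 2010 and 3224, and array weights 2361 and 4139. Without a filter, where all 18769 probe sets other than controls were tested, 2112 were higher and 2795 lower. With an array left out 1870 to 2186 were higher and 2840 to 3527 lower.

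On the spike-in scale 20 named differences turned positive: insc 1.09, pins 1.02, pros 1.12, brat 1.25, pon 1.35, l(2)gl 1.09, dlg1 1.32, its probe set 1635382_at 0.92, the pins and hoip probe set 0.95, Galphai 1.25, ric8a 1.15, mud 0.95, spdo 1.09, bora 1.09, Pp4-19C 1.12, tws 0.95, wor 1.22, ase 1.09, cas 1.12 and gcm 1.15. The constant added to each array accounts for this by construction. Averaging the probe sets of a gene turned dlg1 to 0.61 (adjusted p = 0.00276), since it includes 1627882_at, and scrib to -0.10, since it includes 1639402_a_at. Of the 41 named differences that passed as reported, 8 lost their call when at least 1 array was left out: baz, numb, pros, scrib, Galphai, stau, cas and Gs2. For cas this needed mutant replicate 1 or 3 to be left out (adjusted p = 0.0523 and 0.0521), and for Gs2 any mutant replicate, or wild-type replicate 1 or 2 (adjusted p = 0.0664 to 0.142). Testing without a filter ended the calls of baz, pros, scrib, stau and Gs2 (adjusted p = 0.0661 to 0.147).

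Whether the replicate numbers pair the arrays could not be decided. Deviations of same-numbered arrays correlated at 0.166, -0.015 and 0.271, and those of the other pairs at -0.294 to 0.197. Mutant array 1 correlated better with wild-type array 2 (0.197) than with wild-type array 1. These deviations cancel within a genotype, so the correlations constrain each other. With the replicate block numb, pros, bora and cas (adjusted p = 0.0646 each), stau (0.0852), and sna and Gs2 (0.0506 each) lost their calls, and brat was called lower (adjusted p = 0.0454).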
